A study of Mus musculus with 29 samples.

Results

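The genes described here are those of cholesterol and fatty acid synthesis and of their SREBP control, followed across the prostate tumors of the TRAMP mouse with and without osteopontin. The set was a list of 39 symbols, which stand for 38 genes because Sc4mol is an older symbol of Msmo1. Of these, 34 were tested: 5 SREBP regulators, 16 genes of the sterol branch and 13 of the fatty acid branch, out of 10768 genes tested in all. Acat2, Mvk, Fdft1 and Acsl1 had no named probe and were not analysed here.

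Cells make cholesterol and fatty acids through enzymes whose genes are switched on by the SREBP transcription factors. SREBP precursors sit in the endoplasmic reticulum with SCAP, their escort protein, and are held there by INSIG proteins while sterols are plentiful. When sterols run low, SCAP carries SREBP to the Golgi, where it is cleaved. SREBP2, from Srebf2, acts mainly on the sterol branch, and SREBP1, from Srebf1, mainly on the fatty acid branch, and in prostate cancer cells the pathway is known to respond to androgens.

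All mice were males that carried the TRAMP transgene, the SV40 T antigen under the rat probasin promoter, which is active in prostate epithelium and responds to androgens. Prostates came from 18 wks old TRAMP mice without a palpable tumor (T18, n = 4), 30 wks old TRAMP mice with a palpable adenocarcinoma (T30, n = 4), and 15 and 18 wks old OPN-/-TRAMP mice without a palpable tumor (OPT15, n = 5; OPT18, n = 13). A further 3 OPN-/-TRAMP prostates of the same 18 wks held a palpable neuroendocrine (NE) tumor (OPT-tm). OPN-/- is the deletion of osteopontin, the product of Spp1. The labelled strains were C57BL/6-tgN (TRAMP)8247Ng for TRAMP and B6.tgN (TRAMP)8247Ng Spp1<tm1Blh>/J for OPN-/-TRAMP mice.

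Each prostate, 1 per mouse, was read on 1 Illumina MouseRef-8 array, and all values below are log2 signals after quantile normalization. In whole tissue, fewer cells of a type and less RNA per cell cannot be told apart. Per array 38.7% to 51.8% of probes were detected, with a median of 40.4% and 40.1% on chips 3 and 4 against 49.6% and 49.5% on chips 1 and 2. Since each chip held at most 1 T30 and at most 1 OPT-tm mouse, these mice are named by their chip. The 6 luminal prostate markers measured, Pbsn, Krt8, Krt18, Hoxb13, Tgm4 and Msmb, had a summed log2 signal of 17.31 to 17.53 in OPT18 and 13.60 to 15.82 in OPT-tm, where Pbsn and Tgm4 were not detected on any array. The 7 neuroendocrine markers tested were all called higher in OPT-tm than in T30. Of the 34 genes, 27 were detected on all 29 arrays, while Tm7sf2 was detected on 16 and Fasn and Idi1 on 9 each.

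Promoters of 28 of the 34 genes, 250 bases before to 50 after the start, were taken from RefSeq (GRCm38.p6). They are shown for Hmgcs1 and Hsd17b7, the entry enzyme of the sterol branch and the gene with the largest rise over T30. Capitals mark CCAAT on either strand, the box bound by NF-Y, a partner of SREBP, and in Hmgcs1 also TCACNCCAC on either strand, a form of the sterol element. These are the plus strand of chr13:119690101-119690400 and the minus strand of chr1:169969156-169969455.
Hmgcs1: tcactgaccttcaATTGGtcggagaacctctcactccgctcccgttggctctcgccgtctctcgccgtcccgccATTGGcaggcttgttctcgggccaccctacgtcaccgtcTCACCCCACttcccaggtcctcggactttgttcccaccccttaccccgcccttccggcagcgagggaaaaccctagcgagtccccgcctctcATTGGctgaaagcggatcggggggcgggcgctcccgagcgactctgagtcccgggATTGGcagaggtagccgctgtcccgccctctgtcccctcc
Hsd17b7: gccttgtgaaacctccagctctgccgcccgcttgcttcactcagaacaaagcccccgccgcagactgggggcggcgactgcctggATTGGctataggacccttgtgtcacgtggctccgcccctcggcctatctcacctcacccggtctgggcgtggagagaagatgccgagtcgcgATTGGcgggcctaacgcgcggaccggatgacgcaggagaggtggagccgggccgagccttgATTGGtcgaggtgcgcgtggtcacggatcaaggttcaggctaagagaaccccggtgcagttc
The Hmgcs1 window held TCACNCCAC once and CCAAT 4 times, and the Hsd17b7 window held CCAAT 3 times. TCACNCCAC was found in 1 of the 28 genes, Hmgcs1, and in 1.44% of the 27025 genes with a promoter there. These 27025 were not filtered by detection on the arrays, unlike the members. A gene counted where any of its promoters held the letters. CCAAT was found in 24 of the 28 genes (85.7%), against 41.1% of the 27025 genes. Among the 24 were 13 of 13 sterol genes, 7 of 10 fatty acid genes and 4 of 5 SREBP regulators. By promoter, CCAAT stood in 25 of the members' 38 (65.8%) and in 37.4% of all windows of this length. These are matches of letters, and where none was found it says only that these letters are not in the window.

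To compare the NE tumors with adenocarcinomas, OPT-tm was set against T30, groups that differ in genotype, age and tumor type together, so that these cannot be told apart. Several genes along the sterol branch were higher in OPT-tm, led by Hsd17b7, Sqle, Hmgcs1, Fdps and Dhcr7, and in the fatty acid branch Fads1 and Acsl3 were higher and Elovl1 was lower. A gene was called at an adjusted p under 0.05 (limma, Benjamini-Hochberg over all genes) and at least 2-fold. By this rule 7 of 34 members rose and 1 fell, which is 20.6% and 2.94%, against 11.5% and 12.5% of all genes. In either direction the members' share, 23.5%, was near that of all genes, 24.1%. At an adjusted p under 0.05 alone, 10 rose and 3 fell (38.2% in all, against 21.4% and 21.7%, or 43.1%, of all genes).

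OPT-tm was also set against OPT18, of the same genotype and age. Here 6 members rose (Elovl6, Sqle, Hsd17b7, Fads1, Hmgcs1 and Fdps) and Scd1 fell, which is 17.6% and 2.94%, against 12.3% and 13.6% of all genes. In either direction this was 20.6% of members and 25.8% of all genes. At an adjusted p under 0.05 alone, 13 rose and 8 fell (61.8% in all, against 32.2% and 32.3%, or 64.5%, of all genes). Both comparisons share the 3 OPT-tm arrays, so they are not independent of each other, and the comparisons further on share T30, T18 and OPT18 arrays in the same way.

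**Figure D1:**
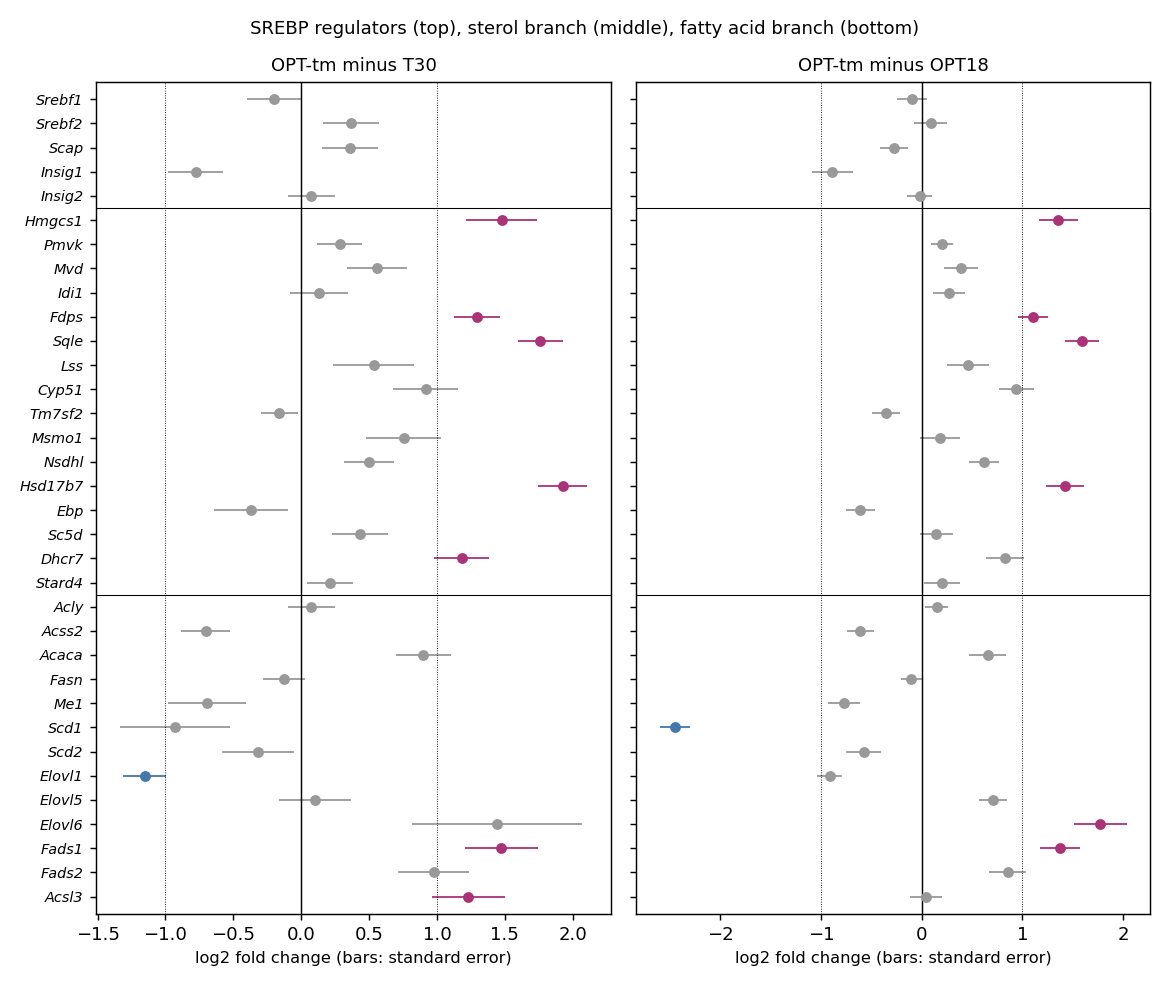
Log2 fold change (x axis) of the 34 genes (y axis) in OPT-tm against T30 (left) and against OPT18 (right), with the standard error as bars; dotted lines mark 2-fold, and purple and blue points are genes called higher and lower. Called rises lie in the middle and bottom panels and none in the SREBP regulators at the top.

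Among the SREBP regulators, 0 of 5 were called in either comparison (limma), and 1 of 5, Insig1, had an unadjusted p under 0.05 in each, beside 51.4% of all genes against T30 and 67.2% against OPT18. Srebf2, the gene of SREBP2, gave 10.92, 11.20 and 11.32 in OPT-tm and 10.39, 10.66, 10.96 and 11.10 in T30. In OPT18 it ran from 10.66 to 11.67 (median 11.02). The groups overlapped, with differences of 0.37 (SE 0.21, adjusted p = 0.18) from T30 and 0.09 (SE 0.16, adjusted p = 0.65) from OPT18.

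Srebf1, the gene of SREBP1, gave 9.43, 9.46 and 9.72 in OPT-tm and 9.45, 9.52, 9.85 and 10.12 in T30. It ran from 9.29 to 10.18 in OPT18 (median 9.57). OPT-tm lay within the range of OPT18, with differences of -0.20 from T30 (SE 0.20, adjusted p = 0.442) and -0.10 from OPT18 (SE 0.15, adjusted p = 0.582). Scap, the escort, differed by 0.36 from T30 and by -0.27 from OPT18, and Insig2, a retention protein, by 0.07 and -0.02, with adjusted p-values from 0.0902 to 0.906.

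For Insig1, the other retention protein and itself a known SREBP target, the probes disagreed. The probe used gave 9.33, 9.83 and 10.11 in OPT-tm and 10.41, 10.42, 10.60 and 10.71 in T30, so OPT-tm lay below T30. It fell by 0.78 (SE 0.20, adjusted p = 0.0147) from T30 and by 0.89 (SE 0.20, adjusted p = 0.000855) from OPT18, each less than 2-fold. A second probe, also detected on all 29 arrays, ran the other way, from 9.90 to 10.28 in OPT-tm and from 9.27 to 9.82 in T30. It differed by 0.62 from T30 and by 0.45 from OPT18. Another, detected on 26 arrays, differed by 0.80 and 0.24. No direction is therefore given for Insig1.

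In the sterol branch 5 of 16 genes rose in OPT-tm against T30 and 0 fell (31.2%, against 11.5% of all genes called higher), and 4 rose and 0 fell against OPT18 (25.0%, against 12.3%). The median log2 fold change was 0.55 and 0.43, beside -0.03 and -0.01 over all genes. Groups did not overlap for 7 of 16 genes against T30, all higher in OPT-tm, and 24.3% of all genes lay apart in that direction.

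Hmgcs1, HMG-CoA synthase, makes the precursor of mevalonate. It gave 14.73, 15.07 and 15.88 in OPT-tm and 13.59, 13.72, 13.75 and 13.93 in T30, and 13.63 to 14.47 in OPT18 (median 13.76). All 3 NE tumors lay above every other array, and OPT-tm of chip 3 was the highest. The rise was 1.48 over T30 (SE 0.26, adjusted p = 0.00225) and 1.36 over OPT18 (SE 0.20, adjusted p = 6.58e-06).

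Fdps, farnesyl diphosphate synthase, supplies the last intermediate shared by sterols and other isoprenoids. It gave 13.79, 13.84 and 14.29 in OPT-tm against 12.57, 12.62, 12.68 and 12.85 in T30, and 12.55 to 13.36 in OPT18 (median 12.89). OPT-tm did not overlap either group, with rises of 1.30 (SE 0.17, adjusted p = 0.000486) and 1.11 (SE 0.15, adjusted p = 2.51e-06).

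Sqle, squalene epoxidase, catalyses the first oxygenation and a rate-limiting step of the branch. It gave 14.15, 14.29 and 14.30 in OPT-tm against 12.27, 12.30, 12.63 and 12.74 in T30, and 12.22 to 13.17 in OPT18 (median 12.59). The NE tumors were close to each other and apart from all other arrays. It rose by 1.76 over T30 (SE 0.17, adjusted p = 9.19e-05) and by 1.59 over OPT18 (SE 0.17, adjusted p = 1.46e-07), and a second Sqle probe differed by 2.16 and 2.14.

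Hsd17b7, the sterol 3-ketoreductase, acts in the removal of the C4 methyl groups and can also reduce estrone. It gave 12.35, 12.61 and 12.76 in OPT-tm against 10.42, 10.57, 10.63 and 10.97 in T30, and 10.66 to 11.62 in OPT18 (median 11.20). Again OPT-tm lay above all other arrays, with rises of 1.93 (SE 0.18, adjusted p = 8.95e-05) and 1.43 (SE 0.19, adjusted p = 2.18e-06).

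Dhcr7, the last enzyme of the path to cholesterol, gave 9.77, 10.29 and 10.45 in OPT-tm and 8.77, 8.91, 9.07 and 9.21 in T30, of which 3 of 4 were detected. OPT18 ran from 8.84 to 10.01 (median 9.39) and overlapped OPT-tm. The rise over T30 was 1.18 (SE 0.20, adjusted p = 0.00189), and the difference from OPT18, 0.83 (SE 0.19, adjusted p = 0.000925), was under 2-fold.

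Cyp51, the lanosterol demethylase, and Nsdhl, which acts with Hsd17b7, passed the adjusted p but not the fold against OPT18, at 0.94 and 0.62. Against T30 Cyp51 differed by 0.92 (adjusted p = 0.0145) and Nsdhl by 0.50 (adjusted p = 0.0586). Mvd, mevalonate diphosphate decarboxylase, passed the adjusted p against OPT18 alone (0.39, adjusted p = 0.0487). In the other direction Ebp, the sterol isomerase, differed by -0.61 from OPT18 (adjusted p = 0.00102) and by -0.37 from T30, where it did not pass. Tm7sf2, a sterol reductase, was detected on 0 of 3 OPT-tm arrays and on 9 of 13 OPT18 arrays, so OPT-tm has only a bound, and OPT18 was at least 1.09-fold higher (adjusted p = 0.0367, limma). The other members, Pmvk, Idi1, Lss, Msmo1, Sc5d and the sterol carrier Stard4, did not pass in either comparison, with differences from 0.13 to 0.76 against T30 and from 0.15 to 0.46 against OPT18. For Idi1, detected on 9 arrays, most values were near background.

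**Figure D2:**
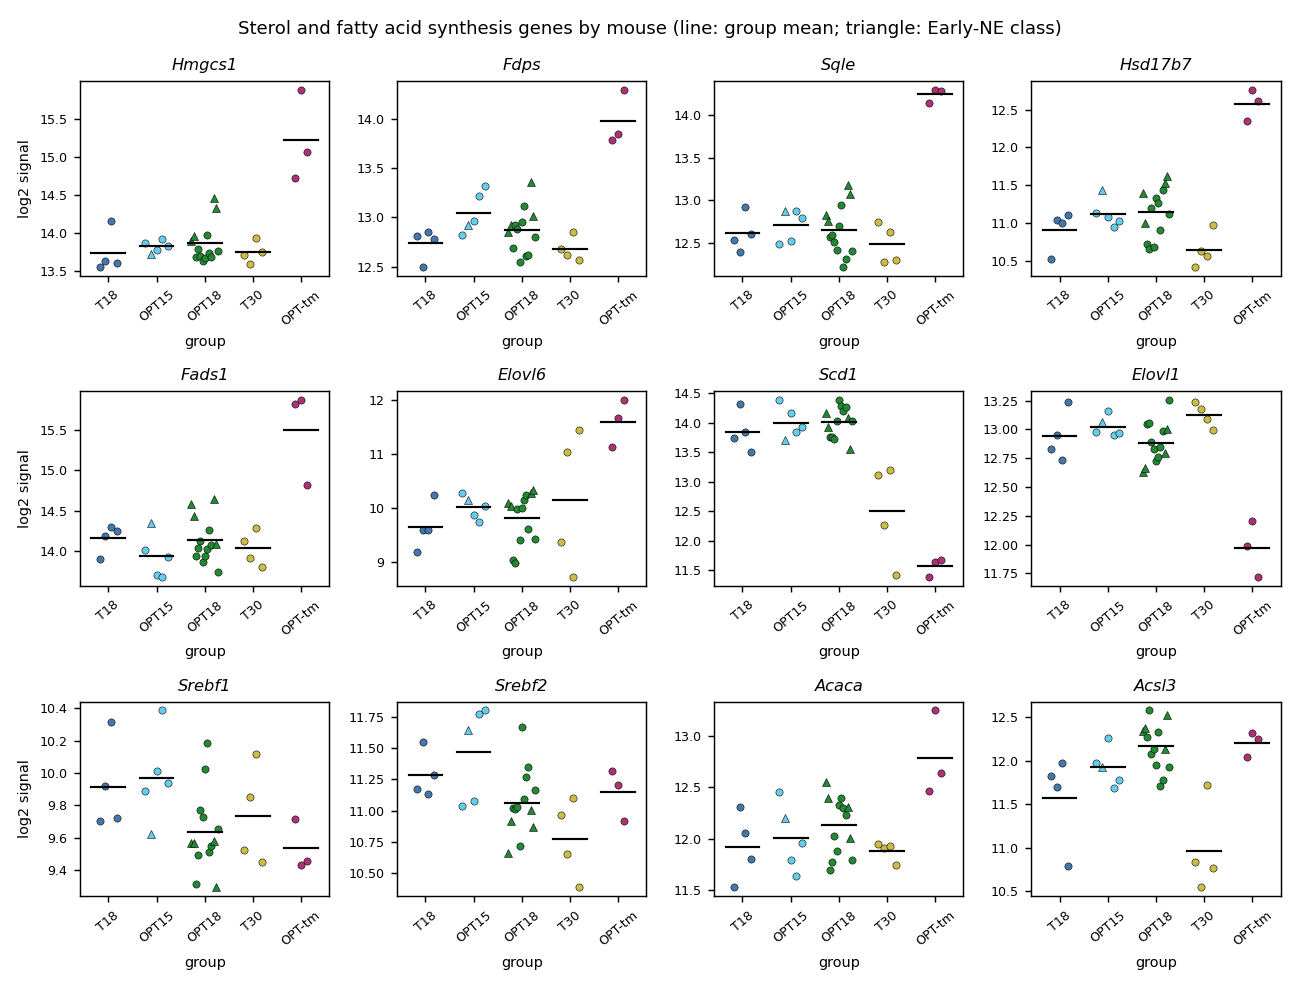
Log2 signal (y axis) of 12 genes in each mouse by group (x axis), with the group mean as a line and the Early-NE class as triangles. Hmgcs1, Fdps, Sqle, Hsd17b7 and Fads1 have all 3 OPT-tm mice above every other mouse, and Scd1 has them below every OPT18 mouse.

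In the fatty acid branch the members went in both directions. Against T30 2 of 13 rose and 1 fell, and against OPT18 2 rose and 1 fell. That is 23.1% in each, near the 24.1% and 25.8% of all genes. The median log2 fold change was 0.08 and 0.04. At an adjusted p under 0.05 alone, 4 rose and 2 fell against T30 (46.2%, against 43.1% of all genes), and 5 rose and 5 fell against OPT18 (76.9%, against 64.5%).

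Of the enzymes that make palmitate, Acaca, acetyl-CoA carboxylase, gave 12.46, 12.64 and 13.25 in OPT-tm against 11.75, 11.91, 11.93 and 11.95 in T30, and 11.69 to 12.55 in OPT18 (median 12.23). It was apart from T30 and overlapped OPT18, with differences under 2-fold of 0.90 (SE 0.20, adjusted p = 0.00735) and 0.65 (SE 0.18, adjusted p = 0.00404). Fasn, fatty acid synthase, gave 8.29, 8.38 and 8.51 in OPT-tm and 8.30, 8.41, 8.66 and 8.70 in T30. It was detected on 1 of 3 OPT-tm, 1 of 4 T30 and 5 of 13 OPT18 arrays, so a difference was not detectable at this signal. Acly, which makes cytosolic acetyl-CoA, differed by 0.08 and 0.15, at adjusted p-values of 0.756 and 0.261. Acss2, which makes acetyl-CoA from acetate, was lower by under 2-fold in both (-0.70 and -0.61, adjusted p = 0.013 and 0.000573). Me1, malic enzyme, a source of NADPH, differed by -0.69 from T30 (adjusted p = 0.085) and by -0.78 from OPT18 (adjusted p = 0.000278).

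Among elongases and desaturases, Scd1, the stearoyl-CoA desaturase that makes oleate, had the largest difference from OPT18 but was not called against T30. It gave 11.38, 11.63 and 11.68 in OPT-tm and 13.56 to 14.38 in OPT18 (median 14.03), with no overlap. It fell by 2.45 (SE 0.15, adjusted p = 1.03e-10). In T30 it gave 11.41, 12.26, 13.11 and 13.20, and the lowest, on chip 2, lay among the NE tumors. The difference from T30 was -0.93 (SE 0.41, adjusted p = 0.096), and without that mouse it was -1.29 (adjusted p = 0.00513). Scd2, a second desaturase, differed by -0.32 and -0.58, at adjusted p-values of 0.364 and 0.00749.

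Scd1 is abundant in adipocytes, and adipocyte markers were also lower in OPT-tm than in OPT18. Of 7 such genes tested, 6 were detected on no OPT-tm array, Adipoq among them. Against OPT18 3 of the 7 were called lower (42.9%, against 13.6% of all genes). Their summed log2 signal ran from 10.90 to 10.98 in OPT-tm and from 12.44 to 13.30 in OPT18. Against T30 1 of the 7, Pparg, was called lower (14.3%, against 12.5% of all genes), and the median log2 fold change of the 7 was -0.11. In the T30 mice, in the order of rising Scd1 given above, the adipocyte sum was 11.001, 11.32, 11.82 and 11.83. Much of this order came from Pparg, at 8.67, 9.73, 10.90 and 10.48, while Adipoq was detected only in the last of these mice. The luminal markers summed to 15.76, 16.68, 17.04 and 17.45. In the T18 mouse on chip 3 the adipocyte sum was 11.26 and the luminal sum 17.40. Adipoq was not detected in that mouse, and its Scd1 was 13.51, above every T30 mouse. All T18 mice are given further on. The part of either cell type in the Scd1 values was not tested.

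Elovl6, which extends palmitate to stearate, gave 11.12, 11.66 and 11.99 in OPT-tm and 8.99 to 10.33 in OPT18 (median 9.999), a rise of 1.78 (SE 0.27, adjusted p = 1.03e-05) with no overlap. T30 split widely, at 8.73, 9.38, 11.04 and 11.43, with an SD of 1.30, the highest SD of the 34 genes in T30. Its higher values came from the mice on chips 3 and 2, those with the lowest Scd1. The difference from T30 was 1.45 (SE 0.63, adjusted p = 0.0942).

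Elovl1, which extends saturated very long chains, gave 11.72, 11.99 and 12.21 in OPT-tm and 12.99, 13.09, 13.18 and 13.24 in T30, and 12.63 to 13.25 in OPT18 (median 12.84). OPT-tm lay below both groups. It fell by 1.15 from T30 (SE 0.16, adjusted p = 0.000669), while the difference from OPT18, -0.91 (SE 0.13, adjusted p = 4.13e-06), was under 2-fold. The other 3 Elovl1 probes were also lower, by less, at -0.47, -0.62 and -0.91 against T30. Elovl5, which extends polyunsaturated chains, differed by 0.10 from T30 (adjusted p = 0.789) and by 0.71 from OPT18 (adjusted p = 0.000227).

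Fads1, the delta-5 desaturase of polyunsaturated chains, gave 14.82, 15.82 and 15.87 in OPT-tm and 13.80, 13.92, 14.13 and 14.28 in T30, and 13.74 to 14.64 in OPT18 (median 14.07). OPT-tm lay above every other array, and the mouse on chip 2 was nearest to the rest. It rose by 1.47 (SE 0.27, adjusted p = 0.00273) and 1.37 (SE 0.20, adjusted p = 7.67e-06). Fads2, the delta-6 desaturase, differed by 0.98 (adjusted p = 0.0157) and 0.86 (adjusted p = 0.000421), under 2-fold in both.

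Acsl3, which activates long-chain fatty acids for lipid droplets, gave 12.04, 12.25 and 12.32 in OPT-tm and 10.55, 10.77, 10.84 and 11.72 in T30. It rose by 1.23 over T30 (SE 0.27, adjusted p = 0.00671), but OPT18, at 11.71 to 12.57 (median 12.13), held all 3 OPT-tm values, with a difference of 0.04 (SE 0.16, adjusted p = 0.842). A second Acsl3 probe, detected on 5 arrays, differed by 0.64 from T30.

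Averaged over the genes of a branch, each centred on its mean over 29 arrays, the sterol branch stood at 0.21, 0.57 and 0.75 in the OPT-tm mice of chips 1, 3 and 2. In T30 it ran from -0.34 to -0.03 and in OPT18 from -0.21 to 0.17, so OPT-tm was apart from both, with the mouse on chip 1 nearest. The fatty acid branch stood at -0.05, 0.30 and -0.13 in the same mice and at -0.13 to 0.19 in OPT18, which overlapped. The SREBP regulators stood at -0.11, -0.28 and -0.29 in the same mice, with the Insig1 probe used among them. Over the 4 regulators without Insig1, whose probes disagreed, the mean was -0.02, -0.05 and -0.19, within the ranges of T30 (-0.46 to 0.02) and, but for the mouse on chip 2, of OPT18 (-0.14 to 0.24).

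**Figure D3:**
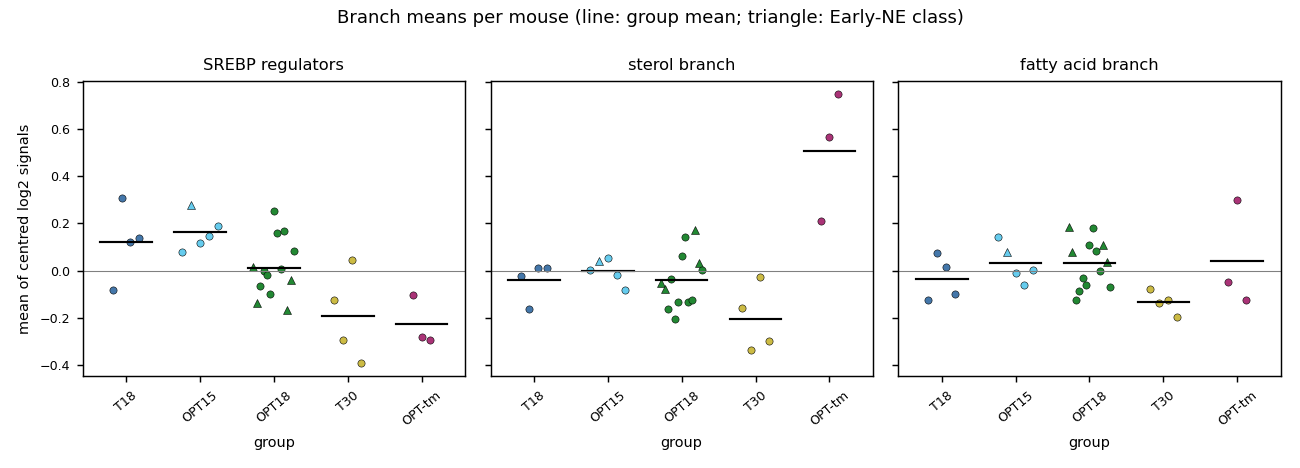
Mean of the centred log2 signals (y axis) of each branch in each mouse by group (x axis), with the group mean as a line and the Early-NE class as triangles. In the sterol branch the 3 OPT-tm mice lie between 0.21 and 0.75, above all others, and in the other panels they overlap other groups.

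OPT-tm and T30 arrays met on 3 chips, chips 1 to 3, each with 1 array of either group. Within chips the differences ran from 1.64 to 2.14 for Hsd17b7, from 1.52 to 2.03 for Sqle, from 0.79 to 2.29 for Hmgcs1 and from 0.94 to 1.72 for Fdps. Fads1 ran from 1.02 to 1.96, Dhcr7 from 0.56 to 1.68, Acsl3 from 0.32 to 1.77 and Elovl1 from -1.28 to -0.97. Scd1 changed sign between chips, from -1.82 to 0.27. Against OPT18 on the same chips, Scd1 ran from -2.90 to -2.09, Elovl6 from 1.12 to 2.20 and Sqle from 1.60 to 1.798.

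Other cell contents also moved. In OPT-tm against T30 the 5 proliferation markers tested rose. All 4 basal, 7 seminal vesicle and 7 of 8 smooth muscle and fibroblast markers fell. Of the 6 luminal markers 3 fell and 0 rose, and of 5 macrophage markers 1 fell and 0 rose. At an adjusted p under 0.05 alone, all 5 macrophage markers were lower, and 3 luminal markers were lower and 1 higher. Against OPT18 the 5 proliferation and 7 neuroendocrine markers rose, while 5 of 6 luminal, all 4 basal, 7 seminal vesicle and 5 skeletal muscle markers and 5 of 8 smooth muscle and fibroblast markers fell. The skeletal muscle markers summed to 10.67 to 11.62 in OPT-tm, 12.49 to 14.95 in T30 and 14.66 to 15.75 in OPT18. Ckm and Myh4 were detected on no OPT-tm or T30 array. Against T30 only 1 of the 5 skeletal muscle markers was called lower (20%, against 12.5% of all genes). The median log2 fold change of the 5 was -0.008. The proliferation markers summed to 15.85 to 16.04 in OPT-tm, 13.40 to 14.23 in T30 and 13.41 to 14.83 in OPT18. The T30 mouse on chip 1 had a seminal vesicle sum of 11.76, where the other T30 mice had 18.44 to 18.62, and without it 9 members were called against T30. The part of these cell contents in the members' values was not tested.

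Around the synthesis genes, lists of lipid uptake, storage and oxidation held called falls and no called rise in OPT-tm against T30. The shares called lower were 23.1% for uptake and transport, 17.6% for storage and 13.3% for oxidation. Beside 12.5% of all genes called lower, oxidation was near the background. With no rises, these are also the shares in either direction, each below the 24.1% of all genes. At an adjusted p under 0.05 alone, 5 uptake and 5 storage genes were lower and 0 higher (38.5% and 29.4%, against 43.1% of all genes). Of 13 genes of cholesterol uptake, transport and efflux 3 fell and 0 rose, among them Cyp27a1, the sterol 27-hydroxylase (from 11.79 ± 0.34, SD, n = 4, to 9.03 ± 0.36, n = 3; adjusted p = 5.78e-05, limma), and Stard5, a sterol carrier (from 11.62 ± 0.35 to 9.55 ± 0.29). Of 17 triglyceride, phospholipid and lipid droplet genes 3 fell and 0 rose, among them Plin3, a droplet coat protein (a log2 fold change of -2.19), and Cds1, which makes CDP-diacylglycerol (-2.05). Of 15 fatty acid oxidation genes 2 fell, Ech1 (-1.43) and Etfb (-1.03), and 0 rose. At an adjusted p under 0.05 alone, 6 oxidation genes were lower and 2 higher (53.3% in all, against 21.7% and 21.4%, or 43.1%, of all genes). The 2 were Crat (0.59) and Cpt1c (0.61), and Cpt1c was detected on 0 of 4 T30 arrays, so its difference was measured from background.

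Of 19 other genes of fatty acid elongation, desaturation and activation, 3 rose and 1 fell. In either direction this is 21.1%, below the 24.1% of all genes. Elovl4, an elongase of very long chains, rose by 1.70 (adjusted p = 0.00193). Acsl6, an acyl-CoA synthetase known from brain, was at 10.68 ± 0.15 (SD, n = 3) in OPT-tm and was detected on 0 of 4 T30 arrays. It was at least 3.8-fold higher, taking for each T30 array the higher of its lowest detected signal and its Acsl6 signal (adjusted p = 1.01e-05, limma). Degs1, the dihydroceramide desaturase, fell by 1.40 (adjusted p = 0.000944). Of 8 further isoprenoid and SREBP processing genes 0 were called (limma), and 4 had an unadjusted p under 0.05 (50%, near the 51.4% of all genes).

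To compare adenocarcinoma with the early TRAMP prostate, T30 was set against T18, and 0 of 34 members were called (limma; 1.49% of all genes were called). At an unadjusted p under 0.05 there were 8, against 17.6% of all genes. Groups did not overlap for 1 gene higher and 5 lower in T30, against 5.26% and 6.58% of all genes. Scd1 gave 11.41 to 13.20 in T30 and 13.51, 13.74, 13.85 and 14.31 in T18, a difference of -1.36 (SE 0.37, adjusted p = 0.101). Without the T30 mouse on chip 1, or with all 29 arrays in 1 fit, Scd1 was called. Markers of other cell types moved in this comparison too. Of 5 skeletal muscle markers 4 were called lower in T30 (a sum of 12.49 to 14.95, against 15.58 to 16.04 in T18), and Col1a1 and Col1a2 of the 8 smooth muscle and fibroblast markers were called higher. Of 7 adipocyte markers 0 were called (limma) and 4 had an unadjusted p under 0.05, with Adipoq at -2.32 (adjusted p = 0.0766) and Cidec at -1.90 (adjusted p = 0.133). Pparg alone of the 7 was higher in T30, by 0.63 (adjusted p = 0.51, limma). The 7 markers summed to 11.001 to 11.83 in T30 and 11.26 to 12.95 in T18. In the T18 mice, in the order of rising Scd1 given above, the sums were 11.26, 12.18, 12.82 and 12.95. The part of these cells in the Scd1 difference was not tested. Srebf2 and Scap also lay apart, at -0.51 (adjusted p = 0.177) and -0.65 (adjusted p = 0.0893), as did Sc5d and Stard4 (-0.36 and -0.33) and, higher in T30, Elovl5 (0.57, adjusted p = 0.172). Hmgcs1, Sqle and Fdps differed by 0.01, -0.13 and -0.06, with adjusted p-values from 0.744 to 0.989.

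At 18 wks without a palpable tumor, OPT18 against T18 compares the genotypes, and 0 of 34 members were called (limma; 0.0279% of all genes). Unadjusted, 2 had a p under 0.05 (6.74% of all genes), Acsl3 (0.59, SE 0.18, adjusted p = 0.513) and Stard4 (-0.33, SE 0.15, adjusted p = 0.725), and these were also the ends of the range over the 34 genes. Between OPT18 and OPT15, the ages within OPN-/-TRAMP, 0 of 34 were called (limma; 0% of all genes). Here 5 had an unadjusted p under 0.05 (21% of all genes), all lower at 18 wks: Mvd (-0.45), Srebf2 (-0.41), Scd2 (-0.41), Srebf1 (-0.34) and Lss (-0.28), with adjusted p-values from 0.111 to 0.231. The median SD of the members over mice was 0.25 in OPT15, 0.25 in OPT18, 0.23 in T18 and 0.21 in T30. In OPT-tm (n = 3) the SDs ran from 0.06 for Tm7sf2 to 0.64 for Lss, and in T30 from 0.06 for Nsdhl to 1.30 for Elovl6.

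The early prostates carry a class label that was made by clustering these same arrays, so its values are a description with no test. It splits OPT18 into 4 prostates called Early-NE and 9 called Early-ADC here. Sqle was at 12.76, 12.82, 13.08 and 13.17 in Early-NE and at 12.22 to 12.94 in Early-ADC (median 12.50). Hmgcs1 was at 13.90, 13.97, 14.33 and 14.47 against 13.63 to 13.98 (median 13.70), and Fads1 at 14.09, 14.44, 14.58 and 14.64 against 13.74 to 14.26 (median 14.02). In each the upper Early-NE mice of OPT18 stood above all its Early-ADC mice and the lower ones overlapped them. The 1 Early-NE prostate of OPT15 had Hmgcs1 at 13.73, below the OPT15 Early-ADC mice (13.78 to 13.93). Its Sqle, 12.87, lay within their range (12.48 to 12.87). Its Fads1, 14.35, was the highest of OPT15, which ran from 13.67 to 14.35 (median 13.92).

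Elovl6 had the largest difference of class means, 0.53, followed by Sqle (0.44), Fads1 (0.44), Hmgcs1 (0.43) and Hsd17b7 (0.35). At the other end were Srebf2 (-0.29) and Lss (-0.20), and Scd1 differed by -0.12. The classes overlapped for all 34 members, and 7.44% of all genes lay apart. The median difference was 0.09 in the sterol branch, 0.07 in the fatty acid branch and -0.05 over all genes. From the Early-NE mean to that of OPT-tm there was a further 1.29 for Sqle, 1.06 for Hmgcs1, 1.07 for Fads1, 1.41 for Elovl6 and -2.37 for Scd1.

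**Figure D4:**
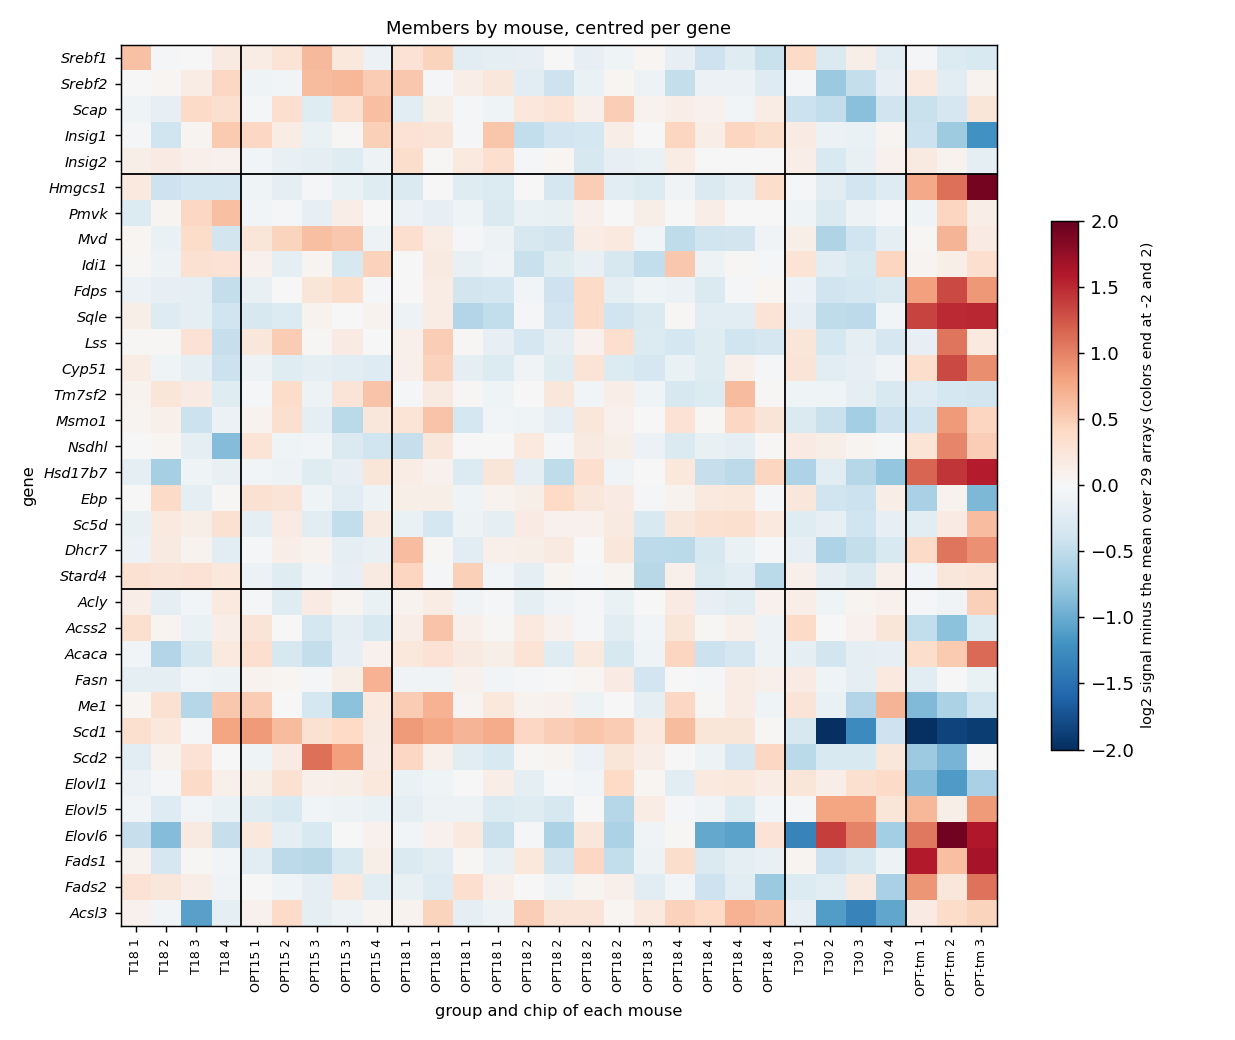
Log2 signal of each of the 34 genes (rows, from SREBP regulators at the top to the fatty acid branch at the bottom) in each of the 29 mice (columns by group and chip), minus the gene's mean over 29 arrays; colors end at -2 and 2. The OPT-tm columns hold the strongest reds, at Hmgcs1, Sqle, Hsd17b7, Elovl6 and Fads1, and the strongest blues are at Scd1 in OPT-tm and in the T30 mouse of chip 2.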

How the data were processed

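Per probe, the values deposited by the authors were the BeadStudio signal intensity, with no normalization, and its detection p-value, for 29 arrays. A second deposited table held log2 values after robust spline normalization with lumi, whose version is not given in the sources used here. Groups, ages and chips came from the labels. These give 13 OPT18 prostates, where the paper gives fewer. Matching the label Ineuntes to Early-NE and Reliquia to Early-ADC rests on the class sizes.

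From the intensities, log2 values were quantile normalized with limma 3.58.1 (R 4.3.3), without background correction. Probes had to reach a detection p-value below 0.01 in 1 array or more, as 15825 of 25697 did. Each gene was then read from its most often detected probe (10768 genes). Each limma fit held the groups of its own comparison, and calls needed an adjusted p under 0.05 and at least 2-fold. Precision is limited by the number of arrays, 1 per mouse. The fits were also run on simulated data with independent normal noise per gene. These held no chip effect and no difference in cell content, so they do not test the calls for either. Figures used matplotlib 3.10.9.

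Members and lists were chosen with earlier results of these data known. Values per mouse are given for the 6 largest called rises and falls in each comparison and for Srebf1, Srebf2, Insig1, Hmgcs1, Sqle, Fasn, Acaca and Scd1, and those of Dhcr7 and of Elovl6 in T30 were added after they were seen. From each related list, up to 2 called rises and 2 falls are named. The alternatives were the authors' log2 values, neqc background correction, equal array medians, other detection filters and probe choice, all arrays in 1 fit, the chip as a block, a trended and robust variance, Early-ADC mice only, and leaving out each mouse in groups of up to 5.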

Additional observations from a re-analysis of the deposited data

Results flagged for a closer look

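Of 42 sets of 4 to 10 mice examined for 14 named members, 2 held a mouse far from the others, and chance gives about 1 in 20. Hmgcs1 was at 14.16 in the T18 mouse on chip 1, where the other T18 mice had 13.56 to 13.63. Fasn was at 9.20 in the OPT15 mouse of the Early-NE class, where the others had 8.48 to 8.62.

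A contrast added after the data were seen took palpable tumor against none in OPN-/-TRAMP (OPT-tm minus OPT18) and subtracted the same in TRAMP (T30 minus T18), with all 29 arrays in 1 limma fit. The palpable tumors were of different type, NE in OPT-tm and adenocarcinoma in T30, and T30 mice were older than T18, while OPT-tm and OPT18 mice were of the same age, so genotype, tumor type and age cannot be told apart here. The difference was called for 7 members higher and 2 lower of 34 (26.5%, against 23.1% of all genes). In the sterol branch it was 1.72 for Sqle (SE 0.24, adjusted p = 1.31e-06), 1.69 for Hsd17b7, 1.35 for Hmgcs1, 1.2 for Dhcr7 and 1.16 for Fdps. In the fatty acid branch it was 1.496 for Fads1 and 1.24 for Fads2, and -1.10 for Elovl1 and -1.09 for Scd1 (SE 0.35, adjusted p = 0.0117). With array medians set equal 7 were called, without Scd1 and Elovl1.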

How the results depend on the processing

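Over 16 alternatives, 8 to 11 members were called in OPT-tm against T30. Hmgcs1, Fdps, Sqle, Hsd17b7, Dhcr7, Fads1 and Acsl3 kept their call in all of them, and with array medians set equal Elovl1 was at -0.90 and was not called. That setting gave 56.8% higher calls over all genes, against 47.9%, and moved the median of OPT18 against OPT15 to 0.15. Against OPT18 the count was 11 with neqc background correction, which adds Insig1, Cyp51, Dhcr7 and Fads2, and 7 to 10 when single mice were left out. Without the OPT-tm mouse on chip 2 Fdps was at 0.95, under 2-fold, and without that on chip 1 Insig1 was at -1.07. With single mice left out Acsl3 ran from -0.018, without the OPT-tm mouse on chip 3, to 0.1197. In T30 against T18 the count was 1, Scd1, with all 29 arrays in 1 fit, and 0 to 1 when single mice were left out. Elovl6 was called against T30 with all 29 arrays in 1 fit (1.45, adjusted p = 0.00526) and without the T30 mouse on chip 2 (1.88). The cause of these changes was not tested. The chip as a block changed no call count, and 0 members were called under any alternative in OPT18 against T18 or OPT15. Mouse numbers are not shared between groups, so mice were matched only by chip. Genes near background, such as Fasn and Idi1, allow no statement on small differences.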
